A study of Mus musculus with 60 samples.

Results

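The 39 Hox genes of the mouse were followed through 60 RNA libraries of tissues, tumours and cell cultures, as genes that mark body position in the embryo. They were chosen by name alone, as every gene whose symbol is Hox, a cluster letter from a to d and a number, which left out antisense and opposite-strand genes of the clusters. They are 39 of 46517 genes counted in the cultured cells and 39 of 54838 genes counted in the tissues. The HoxA cluster holds 11 of them, HoxB 10, HoxC 9 and HoxD 9.

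Hox genes encode homeodomain transcription factors that give cells along the trunk their position from head to tail. The genes of a cluster lie in the order in which they are used along the body axis, so a low paralogue number marks a level near the head and a high one a level near the tail, and the HoxA and HoxD clusters also pattern the limb from shoulder to digits. The forebrain and the front of the head form without Hox genes. Adult cells, fibroblasts above all, keep much of the combination they had in the embryo, which is called their Hox code. Whether the levels below record a position kept by each tissue, tumour or culture was not tested.

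All animals came from a cross of mice carrying a CD74-NRG1 fusion transgene in the Rosa26 locus, behind a stop cassette flanked by FRT sites, with a Flp deleter strain (Rosa26Flp). Flp removes the cassette in the early embryo, after which the fusion is made in nearly every tissue. The tissue libraries came from 9 such mice (Rosa26CD74-NRG1/Flp): 30 of normal liver (8), lung (7), spleen (6), muscle (6), brain (2) and kidney (1), and 12 of tumours, namely 7 sarcomas from 6 mice, 3 liver tumours and 2 tumours labelled intestine from 1 mouse. The tissue labelled normal therefore also carries the transgene, and no tissue without it was analysed here. Mouse embryonic fibroblasts (MEFs) came from 9 embryos, 3 of each genotype, at culture passages 1 and 3. The negative embryos were Rosa26Flp/Flp without the transgene, the heterozygous ones had 1 transgene allele beside the Flp allele, and the homozygous ones had 2 transgene alleles and so no Flp allele of their own. Libraries held 3107561 to 5511793 counts in MEFs and 4837536 to 10089637 in tissues. Levels below are CPM, the counts of a gene scaled to a fixed total of reads in the library, from sequencing of transcript 3′ ends, in which a transcript gives about 1 read whatever its length, so levels of different genes can be set side by side. A count of 0 allows a level of up to 0.297 to 0.62 CPM in a tissue library and 0.544 to 0.965 CPM in a MEF library, taking 3 counts as the limit. A gene is called detected at 1 CPM or more.

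The clusters also hold microRNA genes, whose products were not measured in these libraries. They are shown because their place in the clusters and their targets belong to the same code: miR-10 genes lie among the paralogues of low number and miR-196 genes beside paralogue 9. The mature sequences are from RefSeq (GRCm38.p6), written 5′ to 3′ with the seed, bases 2 to 8, in capitals.
miR-10a-5p: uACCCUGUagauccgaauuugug
miR-10b-5p: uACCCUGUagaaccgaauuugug
miR-196a-5p: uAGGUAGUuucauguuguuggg
miR-196b-5p: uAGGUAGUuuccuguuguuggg
The miR-10 pair shares 1 seed and the miR-196 pair another. Mir10a lies at chr11:96317186-96317208 on the plus strand, within the annotated Hoxb3 gene and between Hoxb5 and Hoxb4, and Mir10b at chr2:74726074-74726096 on the plus strand, within the annotated Hoxd3 and Hoxd4 genes. Mir196a-1 lies at chr11:96265187-96265208 between Hoxb13 and Hoxb9, Mir196a-2 at chr15:102973365-102973386 between Hoxc10 and Hoxc9, both on the plus strand, and Mir196b at chr6:52230129-52230150 on the minus strand between Hoxa9 and Hoxa10. The transcript end of Hoxb8 (ENSMUSG00000056648), which encodes a homeodomain factor of the trunk and of early blood cells, holds a near-complete match to miR-196a-5p at bases 418 to 439 of an 845-base 3′ untranslated region. Capitals mark Watson-Crick pairs and the lower-case letter a G-U pair.
Hoxb8 site: CCCAACAACATGAAACTgCCTA
Of its 22 bases, 21 form Watson-Crick pairs with the microRNA. The 7-base site of the miR-196 seed, ACTACCT on the transcript strand, stood in the 3′ untranslated region of 9 of 39 Hox genes (23.1%, among them Hoxa5, Hoxa7, Hoxa9, Hoxb7 and Hoxc8) and of 1277 of 20968 genes in all (6.09%). That of the miR-10 seed, ACAGGGT, stood in 4 Hox genes (10.3%, among them Hoxb3) and in 12.5% of all genes. The median 3′ untranslated region was 966 bases in Hox genes and 954 in all genes. A match is a description of the letters and does not show that the site is used.

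Some libraries stood apart from their labels or from their group. The 2 tumours labelled intestine had summed levels of 4 intestinal epithelial markers of 2.67 and 3.41 CPM, within the 0.433 to 3.55 CPM of liver, whereas their 4 B cell markers summed to 1318 and 859 CPM, against 314 to 1042 CPM in spleen. They are called the tumours labelled intestine below. The 2 brain libraries both had high sums of 4 neuronal markers (2801 and 3057 CPM, at most 27.6 CPM in any other library), but Otx2, a gene of the forebrain and midbrain, was at 4.1 CPM in the brain of mouse M00237 and 44.5 CPM in that of mouse M00238. Liver, lung, muscle and kidney libraries carried the markers of their label. Sarcomas had fibroblast marker sums of 5857 to 22540 CPM and Schwann cell marker sums of 1768 to 5176 CPM, while striated muscle markers ranged from 13.9 to 2704 CPM. All muscle libraries held keratinocyte markers, 1346 to 3560 CPM in sum, against at most 34.4 CPM in liver, lung, spleen, brain, kidney, liver tumours and the tumours labelled intestine. The sarcoma of mouse M00237 lacked most HoxA and HoxC RNA, and results on sarcomas are given with and without it. Nrg1 levels went against the labels of MEF embryos 1 and 3, as described with the genotypes. In bulk tissue, fewer cells of a type and less RNA per cell cannot be told apart.

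The Hox code differed between tissues in its size, its cluster and its highest paralogue. Summed over the 39 genes, Hox RNA was lowest in brain, at 2.43 and 3.75 CPM, where no gene reached 1 CPM in either library. It was 5.53 to 11.8 CPM in liver, 19.5 to 45.3 in spleen, 10.9 to 68.9 in muscle and 150.2 to 367 in lung. Kidney had 400.4 CPM. Sarcomas held 121 to 383 CPM and MEFs 285 to 442 CPM. Genes at 1 CPM or more in every library of a group numbered 0 in brain, 1 of 39 in liver, 2 in muscle, 3 in spleen, 6 in lung, 10 in sarcomas and 25 in MEFs, and 24 in the single kidney library. Hoxb1 and Hoxd1, of the most head-ward paralogue number, stayed below 1 CPM in all 60 libraries.

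**Figure D1:**
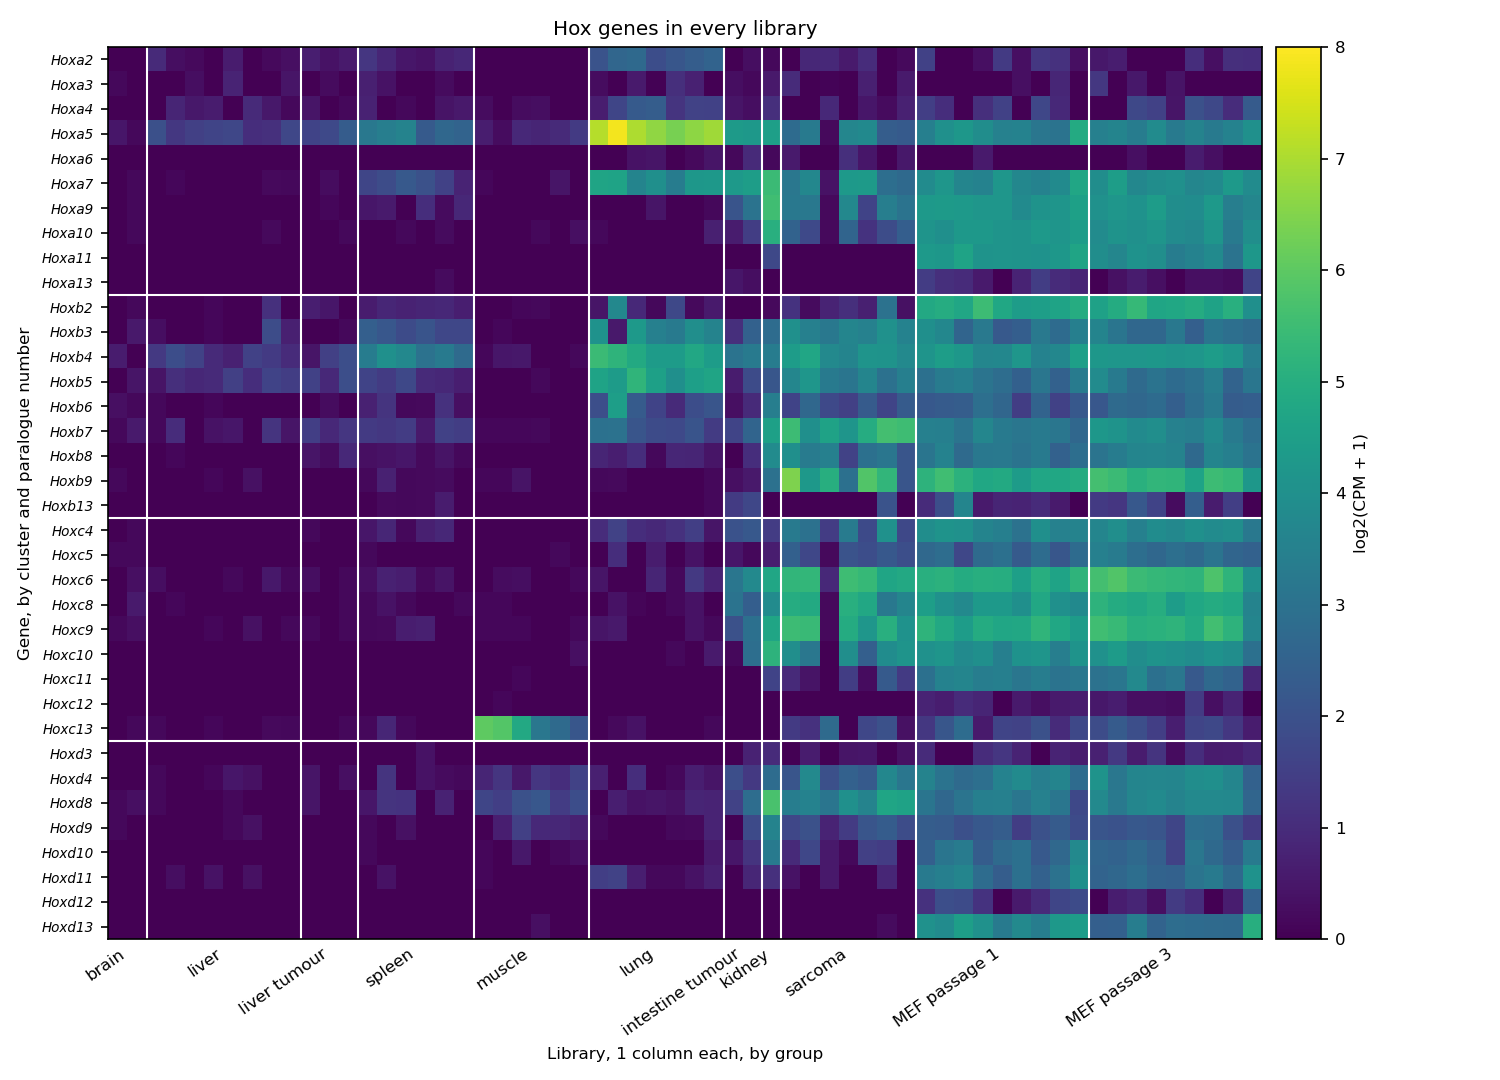
Levels of the Hox genes of paralogue numbers 2 to 13 (vertical, by cluster and number) in all 60 libraries (horizontal, by group), as log2(CPM + 1). Brain and liver are low throughout, muscle outside Hoxc13 and HoxD is near 0, lung is bright over the low and middle numbers of HoxA and HoxB, and the sarcoma of mouse M00237 lacks the HoxA and HoxC blocks of the other 6 sarcomas.

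Brain showed counts at the level of single reads. The highest Hox value in the brain of mouse M00237 was Hoxb4 at 0.512 CPM, from 4 counts (95% exact Clopper-Pearson interval 0.14 to 1.31), and 28 of the 39 genes were at 0 there and 23 in the brain of mouse M00238. Intervals here and below cover counting error only, since no source used here gives molecular identifiers for these reads. Genes of the front of the head were present in the same libraries. Six3, a homeobox gene of the forebrain and eye field, was at 100.1 and 111 CPM in these libraries, and Lhx2, another gene of the forebrain and eye, at 34.8 and 22.6 CPM.

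Liver held a short code of middle paralogues. Hoxa5 (ENSMUSG00000038253), which encodes a factor needed for lung and airway development, was the only gene at 1 CPM or more in all 8 libraries, with 1.08 CPM at the lowest, 2 at the median and 2.86 at the highest. Hoxb4, a regulator of blood stem cells, ranged from 0.659 to 2.7 CPM with a median of 1.54, and Hoxb5 from 0.343 to 2.02 with a median of 1.1. No gene past paralogue 9 reached 1 CPM in any liver. Hoxb8 was at 0 at the median and at most 0.113 CPM.

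The 3 liver tumours came from mice M00236, M00248 and M00249. The library of M00249 is titled plain liver, and its tumour mark in the labels put it here. Hoxa5 was at 2.04, 2.38 and 4.05 CPM, Hoxb5 at 1.92, 0.892 and 2.79 and Hoxb4 at 0.361, 1.88 and 2.79 CPM, and each range overlapped that of liver. Hoxb7, a gene of the thorax, was at 1.8, 0.892 and 1.39 CPM. Hoxb8 was at 0.2 to 0.89 CPM and Hoxb9 at 0 in all 3. Of the 39 members, 4 had enough counts to be tested, and 0 were called by edgeR with Benjamini-Hochberg adjustment at 0.05 over all genes, where 10.6% of all genes tested were called. None had an unadjusted p under 0.05, and DESeq2 also called 0, with its share over all genes not given here. The smallest adjusted p was 0.3, for Hoxb7 (log2 fold change 1.46, SE 0.83).

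Spleen added genes of the HoxB cluster. Hoxb4 was the highest, at 5.86 to 15.1 CPM with a median of 9.06, followed by Hoxa5 at 3.84 to 10.9 with a median of 6.75 and Hoxb3, another gene of the hindbrain and blood cells, at 2.27 to 4.37 with a median of 2.88. Hoxa9, a gene of blood progenitors, reached 1.08 CPM in 1 library at most and had a median of 0.438. The HoxB cluster summed to 11.4 to 25.6 CPM and HoxA to 7.79 to 15.3, against at most 2.92 for HoxC or HoxD. Of 16 members tested, 8 were higher in spleen than in liver and 0 were lower. Of all genes tested, 66.7% were called, 37.7% higher and 29.0% lower, so the share of members called was below that of all genes. The median log2 difference of the members was 1.1, against 0.28 over all genes. With spleen and liver fitted alone, 4 members had enough counts and 3 were called. A member that had enough counts only through 1 of the groups compared had to differ from the other. Such counts thus describe the codes and support nothing, here and in the comparisons between tissues below. Hoxb4 was higher in spleen by a log2 fold change of 1.86 (SE 0.32, adjusted p = 6e-06, edgeR), with no overlap between the groups. Hoxa7 had 96 counts over the 6 spleens and 3 over the 8 livers, a ratio of 28.8 (95% counting interval 9.57 to 142; adjusted p = 4e-06). Hoxb3 (2.11, SE 0.66, adjusted p = 0.0054), Hoxb6, Hoxc4, which had 0 counts in liver, and Hoxd8 were higher too. Hoxb8 passed the test (adjusted p = 0.0057) with 11 counts over the 6 spleens and 1 over the livers, and Hoxb9, with 8 and 3 counts, did not (adjusted p = 0.39).

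Lung had the strongest code of the normal tissues with replicates, and it was made of paralogues 2 to 7 of HoxA and HoxB. Hoxa5 led in all 7 libraries, with 81.5 CPM at the lowest, 116 at the median and 231 at the highest, in mouse M00238. No other normal tissue came near: the next highest Hoxa5 level was 21.8 CPM in kidney (95% exact interval 18.5 to 25.4). Hoxb4 was at 19.9 to 42.5 CPM with a median of 27, and Hoxb5, which takes part in airway branching, at 14.8 to 36.5 with a median of 22.5. Hoxa7 ranged from 9.32 to 24.7 CPM with a median of 17.9. HoxA summed to 97.9 to 263 CPM and HoxB to 49.9 to 97.8, while HoxC gave 1.41 to 4.25 and HoxD 0.511 to 2.96. Paralogues 9 to 13 together made up 0.3 to 1.7% of the Hox RNA of lung. Hoxb9 (ENSMUSG00000020875), a gene of the lower thorax and lumbar trunk, was at 0 in the median lung and at most 0.151 CPM. The lung of mouse M00238 differed from the other 6 in HoxB, with Hoxb2 at 12.3 CPM (others 0.128 to 2.34), Hoxb6 at 21.3 (others 0.947 to 3.89) and Hoxb3 at 0.454 (others 8.76 to 19.1).

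Lung exceeded liver in 11 of 16 members tested and was lower in 0, where 66.3% of all genes tested were called and 38.9% were higher. The share of members called was thus near that of all genes. With lung and liver fitted alone, 7 members had enough counts and 7 were called higher. A member that had enough counts only through lung had to differ from liver, so these counts describe the code. Hoxa5 was higher than in liver by a log2 fold change of 4.92 (SE 0.42, adjusted p = 3.2e-12, edgeR), with no overlap. For Hoxa7, 877 counts stood against 3 in liver, a ratio of 169 (counting interval 57.8 to 823; adjusted p = 1.3e-10). Hoxb4 (3.06, SE 0.32, adjusted p = 3.2e-10) and Hoxb5 (3.12, SE 0.32, adjusted p = 3.6e-10) were higher too, as was Hoxb3 (3.67, SE 0.63, adjusted p = 5.8e-06). Hoxb6 had 257 counts against 2 in liver, a ratio of 74.4 (20.4 to 618; adjusted p = 3.7e-07). Hoxb8 had 32 counts in lung, 0.128 to 1.05 CPM, against 1 count in liver, a ratio of 18.5 (3.1 to 755; adjusted p = 0.00011). Hoxb9 had 3 counts in each tissue and did not pass (adjusted p = 0.66).

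Against spleen, lung was higher in 7 of 16 members and lower in 0, where 51.8% of all genes tested were called and 28.2% were higher. These were Hoxb5 (3.72, SE 0.37, adjusted p = 4.3e-10), Hoxa5 (3.84, SE 0.44, adjusted p = 6.6e-09), Hoxa7 (2.54, SE 0.52), Hoxb6 (2.74, SE 0.66), Hoxb4 (1.2, SE 0.31), Hoxa2 (2.07, SE 0.59) and Hoxb3 (1.56, SE 0.60). All are paralogues 2 to 7 of HoxA and HoxB. Of the 16 members tested, however, 3 belong to HoxA and 7 to HoxB, and only 3 are of paralogues 9 to 13. The share of members called was below that of all genes. For Hoxb8 (0.88, SE 0.55, adjusted p = 0.19) and Hoxb9 (3 counts in lung and 8 in spleen, adjusted p = 0.17) the test did not pass.

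Other genes of position were measured beside this code. The lung mesenchyme genes Tbx5 and Tbx4 were at 33 to 91.6 and 32.3 to 143 CPM in lung, and both were among the 6 of 10 limb and body wall genes tested that differed from liver (Tbx5 6.82, SE 0.50, adjusted p = 1e-13; Tbx4 7.19, SE 0.58, adjusted p = 7.7e-13; 5 higher, 1 lower). Of 9 genes for the cofactors that Hox proteins bind DNA with (the Pbx, Meis and Pknox families), 7 were higher than in liver and 0 were lower, Meis1 by 3.70 (SE 0.25, adjusted p = 7.7e-15). The shares over all genes are those given above for this pair of tissues.

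Muscle had 2 genes at 1 CPM or more in every library, and neither belongs to HoxA or HoxB. Hoxc13 (ENSMUSG00000001655), best known for its role in hair and nail keratin genes, was at 64.2 CPM in mouse M00237, 56.6 in M00238, 27.5 in M00245, 8.03 in M00246, 5.74 in M00248 and 3.37 in M00249. Hoxd8 (ENSMUSG00000027102) lay between 1.67 and 3.5 CPM with a median of 2.46. Hoxd4 was at 0.442 to 2 CPM. HoxB summed to 0.995 CPM at most, and Hoxb8 was at 0 in all 6 libraries. Hoxc13 varied far more between mice than Hoxd8 did.

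Hoxc13 and keratinocyte markers were high in the same muscle libraries. The sum of 4 keratinocyte genes (Krt5, Krt14, Krt15 and Trp63) was 3560, 3510, 1707, 1610, 1575 and 1346 CPM in the order of mice just given, so both measures ranked the 6 libraries alike. Striated muscle marker sums were lowest where Hoxc13 was highest, at 8732 and 8220 CPM in M00237 and M00238 against 14290 to 15500 CPM in the other 4. The part of these cells in the Hoxc13 level was not tested.

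**Figure D2:**
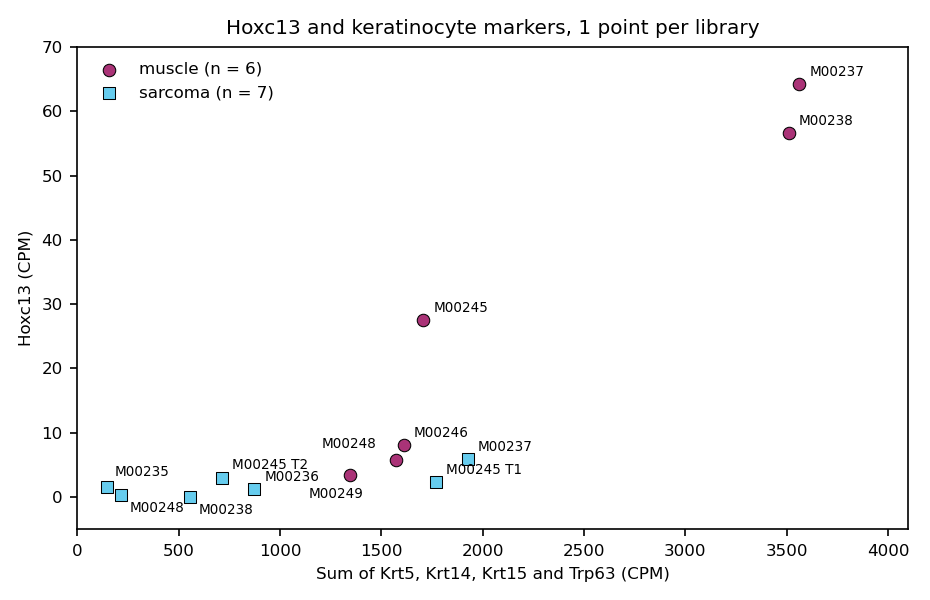
Hoxc13 (vertical, CPM) against the summed level of 4 keratinocyte genes (horizontal, CPM) in 6 muscle and 7 sarcoma libraries, 1 point a library. Among muscle libraries the order of the points is the same on both axes, from 3.37 to 64.2 CPM of Hoxc13, and sarcomas lie at 0 to 5.87 CPM.

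The muscle code differed from those of other tissues in both directions. Against liver, 10 of 16 members were called, 4 higher and 6 lower in muscle, where 59.5% of all genes tested were called (32.4% higher and 27.1% lower). The share of members called was thus near that of all genes. With muscle and liver fitted alone, 3 members had enough counts and 3 were called. Hoxc13 was higher by 8.25 (SE 0.86, adjusted p = 4.3e-10, edgeR) and Hoxd8 had 127 counts against 2, a ratio of 65.1 (17.6 to 543; adjusted p = 2.3e-08). Hoxb4 was lower by a log2 value of -3.19 (SE 0.46, adjusted p = 3.5e-07), and Hoxb5 had 1 count in all muscle against 78 in liver (76.1-fold lower, 13.3 to 3040; adjusted p = 2.6e-09). Hoxa2, with 0 counts in muscle and 18 in liver, was lower too (adjusted p = 0.00038), and Hoxd9 had 42 counts against 3 (ratio 14.3, 4.59 to 72.4; adjusted p = 0.0007). Hoxb9 (5 against 3 counts, adjusted p = 0.66) and Hoxb8 (0 against 1 count, adjusted p = 0.32) were not called.

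Against spleen, 14 of 16 members were called, 4 higher and 10 lower in muscle, where 59.7% of all genes tested were called (30.5% higher and 29.2% lower). With muscle and spleen fitted alone, 5 members had enough counts and 5 were called. Hoxb4 was lower in muscle by -5.05 (SE 0.46, adjusted p = 2.5e-11), and Hoxa5 and Hoxa7 fell below spleen by -2.57 (SE 0.49) and -4.18 (SE 0.78). Hoxb5 and Hoxb3 had 1 count each over all muscle libraries. Hoxb8, with 0 counts in muscle, was lower (adjusted p = 0.00064), while Hoxb9 was not called (-0.45, SE 1.04, adjusted p = 0.73). The 4 higher members were Hoxc13, Hoxd4, Hoxd8 and Hoxd9 in both comparisons. Lung against muscle gave 14 of 16 called, 10 higher and 4 lower in lung, where 54.6% of all genes tested were called (29.9% higher and 24.7% lower). Lung was higher in Hoxa5 by 6.40 (SE 0.52, adjusted p = 3.2e-12) and in Hoxb4 by 6.25 (SE 0.45, adjusted p = 2.4e-13), Hoxb8 was at least 6.03-fold higher (32 counts against 0), and the 4 lower members were again Hoxc13 (-8.90, SE 0.90), Hoxd4, Hoxd8 and Hoxd9.

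Genes of limb position stood beside this code. Pitx1, which specifies the hindlimb, was at 48.3 to 109.5 CPM in muscle and at most 1.99 in sarcomas, while the forelimb gene Tbx5 was at most 0.389 CPM in muscle. Tbx15, a gene of limb and trunk skeleton and skin, was at 117 to 197 CPM. Otx1, known from the head and inner ear, was at 7.74 to 17.4 CPM in muscle and at 6.27 and 8.49 CPM in brain.

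Kidney, with a single library and no test, had the longest code of the normal tissues. Its 24 genes at 1 CPM or more ran from Hoxb3 and Hoxa4 to Hoxa11, Hoxc11 and Hoxd11 and included all 4 clusters, with 146 CPM from HoxA, 71.4 from HoxB, 103.5 from HoxC and 79.1 from HoxD. Hoxd8 was highest at 51.3 CPM (95% exact interval 46.2 to 56.8), then Hoxa9 at 45.3 (40.6 to 50.5), Hoxa7 at 42.7 (38.1 to 47.8), Hoxc10 at 35.3 (31.1 to 39.9) and Hoxa10 at 32.4 CPM (28.4 to 36.8). Hoxa11, which the embryonic kidney needs to form, was at 2.34 CPM (1.37 to 3.75). Genes of paralogue groups 12 and 13 were at 0. Paralogues 9 to 13 made up 42.5% of its Hox RNA.

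The tumours labelled intestine had 13 genes at 1 CPM or more in both libraries. Hoxa5 was at 19.3 and 18.1 CPM and Hoxa7 at 19.2 and 21.2 CPM, equal within their exact intervals. Hoxb13, a gene of the tail end and hindgut, was at 1.6 and 2.24 CPM and at 0.517 CPM at most in any normal tissue. The libraries differed in Hoxc10, at 0.133 CPM in the first and 6.35 in the second (interval 4.77 to 8.29). They come from 1 mouse, so no test was made.

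**Figure D3:**
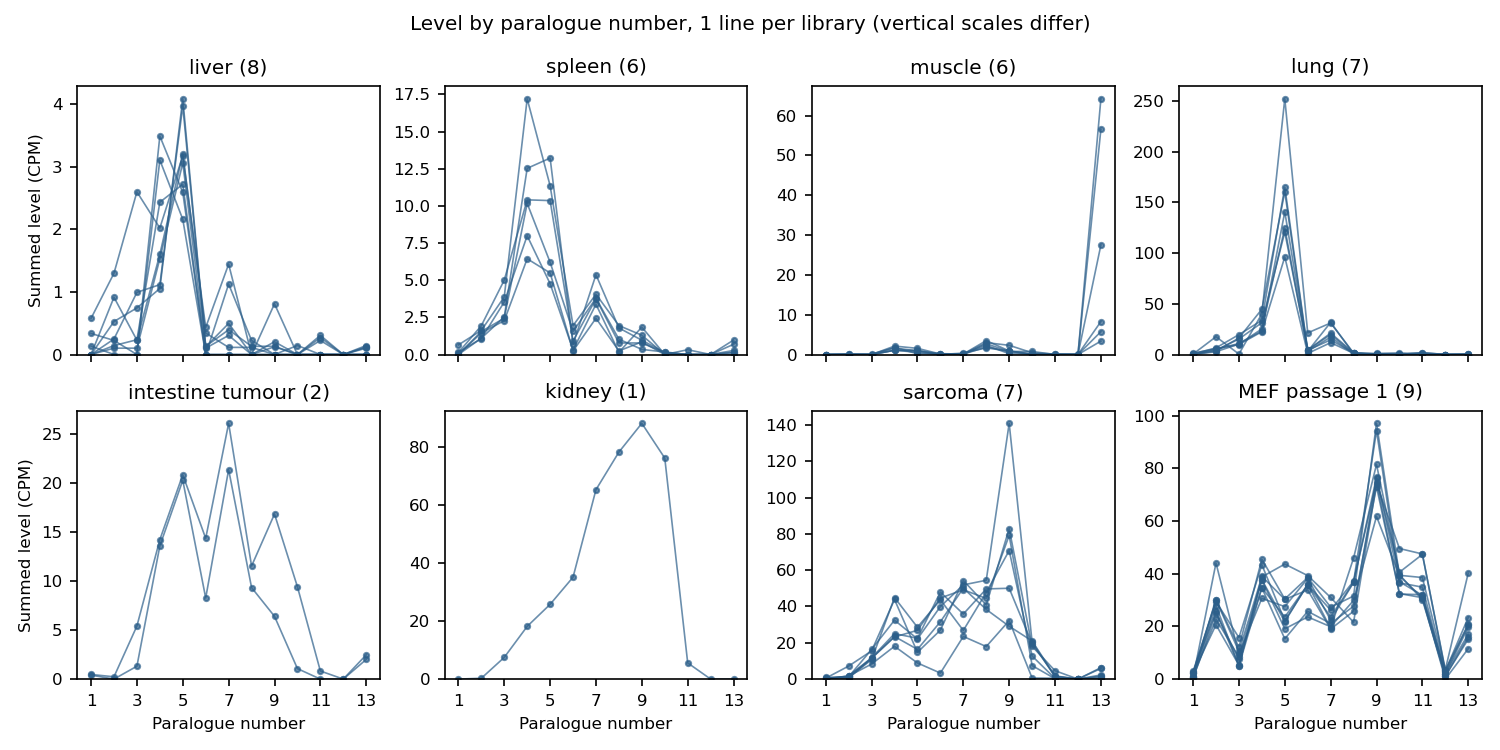
Summed CPM of the Hox genes of each paralogue number (horizontal, 1 to 13), 1 line per library, for liver, spleen, muscle, lung, tumours labelled intestine, kidney, sarcoma and MEFs at passage 1. The vertical scales differ between panels. Each lung line peaks at number 5 and each muscle line at 13, sarcomas spread over numbers 3 to 10, and MEFs, highest at number 9, also hold number 2 and number 13.

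The sarcomas carried a code made mostly of paralogues 3 to 10. In all, 10 genes were at 1 CPM or more in each of the 7 libraries: Hoxb3 to Hoxb9, Hoxc4, Hoxd4 and Hoxd8. Outside the sarcoma of mouse M00237, the other 6 libraries each had 21 to 25 genes at that level, against 11 there. Hox RNA of paralogues 9 to 13 made up 23.2 to 42.9%. Hoxa11, Hoxa13, Hoxc12 and Hoxd12 were at 0 in all 7 libraries, and Hoxd13 was at most 0.166 CPM.

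Hoxb7, Hoxb8 and Hoxb9 were present in each sarcoma. Hoxb7 was at 43.9 CPM in mouse M00235, 14.8 in M00236, 23.2 in M00237, 16.9 in M00238, 29.8 and 47.8 in the tumours T1 and T2 of M00245 and 44.5 in M00248. Hoxb8 was at 15, 9.05, 10.1, 2.01, 6.82, 7.78 and 3.33 CPM in that order. Hoxb9 varied most, with 87.2, 18.1, 31.2, 6.79, 56.2, 37.2 and 3.33 CPM. The tumour of M00235 was highest in Hoxb8 and Hoxb9, and those of M00238 and M00248 were the lowest in both.

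HoxC formed the second block. Hoxc6 was at 37.4, 38.3, 0.903, 44.9, 40.3, 24.8 and 27.2 CPM in the same order of tumours, Hoxc8 at 30.1, 27.8, 0.151, 32.3, 26.7, 8.27 and 11.4, and Hoxc9 at 43.3, 41.6, 0.151, 29.2, 17.6, 31.9 and 15.9 CPM. Hoxc10, a gene of the lumbar trunk and hindlimb, was at 14.6, 8.01, 0, 14.3, 4.34, 13.7 and 16.8 CPM. In HoxA, Hoxa7 was at 7.96, 12, 0.301, 19, 19.4, 6.48 and 5.65 and Hoxa9 at 8.12, 8.18, 0.151, 12.4, 2.07, 9.76 and 7.24 CPM. In each of these genes the tumour of M00237 was the lowest, at 0 to 0.903 CPM.

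The sarcoma of mouse M00237 thus had a code mainly of HoxB, with some HoxD and little HoxA. Of HoxC, it kept mainly Hoxc13, with Hoxc4 also at 1 CPM or more. Its HoxB sum of 97.1 CPM lay within the 59 to 197 CPM of the other 6, and its HoxD sum of 12.2 CPM was below their 16.2 to 43.3. Its HoxA sum was 2.61 CPM against 22.7 to 50.2, and its HoxC sum 8.88 CPM against 78.3 to 141, of which Hoxc13 alone gave 5.87. From 1 count, Hoxc9 there had an exact 95% interval of 0.00381 to 0.839 CPM. The same library held the head genes Six3 at 15.2 CPM and Otx1 at 6.47 CPM, both named after their values were seen, against 0.159 to 2.61 and 0 to 0.496 CPM in the other 6. Of the same list, Lhx2 was at 15.4 CPM, within the 7.16 to 20.3 of the others, and Alx4 at 1.66 CPM, below their 2.14 to 11.9. The library also had the highest keratinocyte marker sum of the sarcomas (1926 CPM, others 145 to 1770). The part of these values in its Hox code was not tested.

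**Figure D4:**
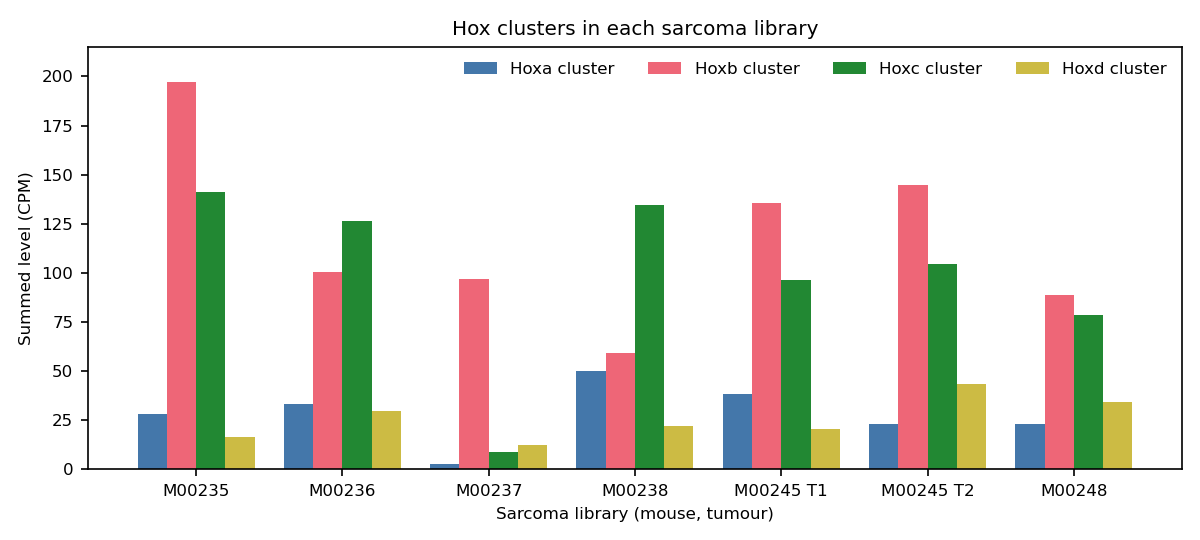
Summed CPM of each Hox cluster (bars, 4 colours) in the 7 sarcoma libraries, named by mouse. HoxB is present in each at 59 to 197 CPM, whereas HoxA and HoxC are at 2.61 and 8.88 CPM in the tumour of mouse M00237 and at 22.7 or more and 78.3 or more in the others.

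The pair of tumours from mouse M00245 differed from each other. T2 had Hoxb2 at 7.16 CPM and Hoxb13 at 3.14 CPM (exact interval 1.89 to 4.91), against 0.62 and 0 in T1 and at most 1.27 and 0 in the other 5. T1 had Hoxa7 and Hoxc8 at 19.4 and 26.7 CPM against 6.48 and 8.27 in T2. Hoxc4 was at 2.48 in T1 and 15.4 in T2. En1, a gene of the midbrain and of skin on the belly side, was at 7.65 CPM in T1 and 0.662 in T2. Counting intervals aside, a pair of libraries allows no test.

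In tests, the 2 libraries of M00245 were summed, which gave 6 sarcomas. Against muscle, 15 of 16 members tested were called, 14 higher and 1 lower in sarcomas, where 54.1% of all genes tested were called (27.7% higher and 26.5% lower). The median log2 difference of the members was 6.46, or 5.62 with the 3 genes at 0 in muscle set to their lower bounds, against 0.09 over all genes. A member that had enough counts only through the sarcomas had to differ, so these counts and medians describe the code and support nothing. These fits scale libraries by TMM, whose factors had medians of 1.57 in sarcomas and 0.76 in muscle. The fitted difference is thus smaller than plain CPM would give for members higher in sarcomas and larger for the lower one. Medians were 1.38 in lung, 1.04 in spleen and 0.63 in liver. Members higher than in liver thus also have smaller fitted differences than plain CPM would give. Ratios of summed counts between tissues use this scaling too. Every one of the 107 calls between tissues with at least 30 counts kept its direction on plain CPM.

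Hoxb4 was at 11.3 to 25.4 CPM in sarcomas and 0 to 0.442 in muscle (log2 fold change 5.44, SE 0.45, adjusted p = 9.2e-12, edgeR with Benjamini-Hochberg adjustment). Hoxb5, at 6.95 to 17.4 CPM in sarcomas, had 1 count in all muscle, a ratio of 266 (47.5 to 10500; adjusted p = 2.9e-12). Hoxb7 was higher by 7.43 (SE 0.66, adjusted p = 3.4e-11) and Hoxb9 by 7.25 (SE 0.80, adjusted p = 3.8e-09). Hoxb8 had 332 counts in sarcomas and 0 in muscle, at least 64.6-fold higher (adjusted p = 1.2e-09). Hoxc6 was higher by 7.21 (SE 0.88, adjusted p = 2.8e-08). For these 6 genes no sarcoma overlapped a muscle library, but they were picked as the called members with the smallest adjusted p. The share of all genes without overlap is not given here, so this only describes their levels. The lower member was Hoxc13 (-4.77, SE 0.71, adjusted p = 9.5e-07), at 0 to 5.87 CPM against 3.37 to 64.2, which overlap. Marker sums moved with these groups: fibroblast markers summed to 1081 to 1434 CPM in muscle against 5857 to 22540 in sarcomas, and Schwann cell markers to 64.5 to 153 against 1768 to 5176. Their part in the result was not tested. With mouse as a replicate block the call of Hoxd4 was lost (1.34, SE 0.82, adjusted p = 0.18).

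Lung is the tissue whose Hox sum is nearest to that of sarcomas, and here the direction split by cluster and paralogue. Of 16 members, 13 were called, 9 higher and 4 lower in sarcomas, where 44.0% of all genes tested were called, 20.0% higher and 24.0% lower. Lower were Hoxa5 (-4.37, SE 0.45, adjusted p = 8.4e-10), Hoxa2, Hoxb4 and Hoxb5, all of paralogues 2 to 5. Higher were Hoxb7 (2.83, SE 0.43, adjusted p = 1.8e-06), Hoxb8 (3.49, SE 0.48, adjusted p = 8.2e-07), Hoxd8 (4.83, SE 0.56, adjusted p = 1e-08), Hoxc6 (5.75, SE 0.71, adjusted p = 3.9e-08), Hoxb9, Hoxc4, Hoxc13, Hoxd4 and Hoxd9. Hoxb9 had 1433 counts in sarcomas and 3 in lung, a ratio with a counting interval of 168 to 2390 (adjusted p = 1.1e-10). Without the sarcoma of M00237 the call of Hoxb4 was lost (-0.71, SE 0.33, adjusted p = 0.08), and with mouse as a replicate block that of Hoxc4 (1.56, SE 0.68, adjusted p = 0.085). Hoxa5 did not overlap, at 0.151 to 12.8 CPM against 81.5 to 231. Hoxb4 and Hoxb5 did.

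Against liver, 14 of 16 members were higher in sarcomas and 0 were lower, where 68.8% of all genes tested were called (38.3% higher and 30.6% lower). Against spleen, 13 were higher and 0 lower, where 52.3% were called and 27.3% were higher. Hoxb7 was higher than in liver by 4.86 (SE 0.48, adjusted p = 9.9e-11) and than in spleen by 3.88 (SE 0.49, adjusted p = 4.9e-08), and Hoxc6 by 6.80 (SE 0.77) and 6.12 (SE 0.79). Hoxb8 had 1 count in liver (ratio 199, 35.4 to 7860) and was higher than in spleen by 4.37 (SE 0.56, adjusted p = 1.6e-07). Hoxb9 had 3 counts in liver (ratio 286, 97.5 to 1390) and was higher than in spleen by 6.79 (SE 0.76, adjusted p = 4.5e-09). Hoxd8 was higher than in spleen by 4.15 (SE 0.58, adjusted p = 2.7e-07) and had 2 counts in liver (ratio 197, 54.4 to 1630). Hoxa7 had 3 counts in liver (ratio 88.5, 30.1 to 431), and Hoxb5 was higher than in spleen by 2.52 (SE 0.37, adjusted p = 5.8e-07). Hoxa5, the main gene of lung, did not pass against either (0.55, SE 0.41, adjusted p = 0.24; -0.54, SE 0.42, adjusted p = 0.29). Without the sarcoma of M00237 it was higher than in liver (0.82, SE 0.32, adjusted p = 0.024). With mouse as a replicate block the calls against spleen of Hoxa7 (1.40, SE 0.67, adjusted p = 0.089), Hoxb6 (1.37, SE 0.62, adjusted p = 0.076) and Hoxc13 (1.80, SE 0.86, adjusted p = 0.09) were lost. The 4 comparisons share the sarcoma libraries.

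The tumour of mouse M00237 set how many members could be tested. A gene needed counts in as many libraries as the smallest group holds. With little HoxA and HoxC RNA in that tumour, Hoxa9, Hoxa10, Hoxc8, Hoxc9 and Hoxc10 fell short. Left out, 23 members were tested, and 21 were called against muscle (20 higher), 19 against lung (15 higher), 22 against liver (21 higher) and 19 against spleen (19 higher). The shares of all genes called were then 51.6, 41.1, 66.5 and 49.5%. With all sarcomas and no filter on counts, 25, 23, 25 and 21 of 37 members were called against muscle, lung, liver and spleen, where 29.9, 24.9, 41.4 and 29.4% of all genes were called. Hoxc8 was higher than in muscle, where it had 2 counts, and higher than in lung by 7.56 (SE 0.60, adjusted p = 6.3e-12). Hoxc9 was higher than in muscle by 7.57 (SE 0.73, adjusted p = 3.3e-10) and than in lung by 7.26 (SE 0.64, adjusted p = 5.1e-11). A member that could be tested only because sarcomas express it had to differ from tissues without it, so these counts describe the code and do not add support for it.

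The genes that act with or on Hox genes were compared with muscle in the same fit. Of 9 cofactor genes, 7 were called in sarcomas against muscle, 4 higher and 3 lower, among them Pbx3 (1.09, SE 0.20, adjusted p = 2.3e-05), Meis3 (2.00, SE 0.47) and Pknox2 (-1.58, SE 0.31). Polycomb genes, whose complexes keep Hox genes silent, had 6 of 15 called, all 6 higher, with Ezh2 by 1.57 (SE 0.31, adjusted p = 6.8e-05) and Phc2 by 1.16 (SE 0.24). The opposing trithorax and demethylase genes had 4 of 6 called and all 4 were higher, with Kmt2d by 0.95 (SE 0.25). Of 11 retinoic acid genes tested, the pathway that switches on Hox clusters in the embryo, 3 were higher and 4 lower, with Aldh1a3, which makes retinoic acid, higher by 5.78 (SE 0.53, adjusted p = 7e-11). Among limb and body wall genes 4 of 10 were higher and 3 lower, with Pitx1 lower by -8.15 (SE 0.53, adjusted p = 4.5e-14) and Tbx15 by -3.58 (SE 0.31). Of 4 head genes tested, Lhx2 was higher (5.14, SE 0.65) and Dlx5 and Otx1 lower. The caudal and ParaHox genes Cdx1, Cdx2, Cdx4, Gsx1, Gsx2 and Pdx1 had too few counts to be tested. All of these counts stand against the 54.1% of all genes called in this comparison.

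MEFs carried the code with the most genes. Of the 39 genes, 25 were at 1 CPM or more in all 18 libraries, from Hoxb2 to Hoxd13, and Hox RNA of paralogues 9 to 13 made up 43.9 to 53.4% at passage 1 and 38.9 to 50.9% at passage 3. The highest genes at passage 1 were Hoxc6 (21.8 to 35.7 CPM, median 31.1), Hoxb9 (19.8 to 46.1, median 27.7), Hoxc9 (19.8 to 36.9, median 26.9) and Hoxb2 (20.4 to 43.8, median 26.2). Hoxb2, a hindbrain gene, was at most 12.3 CPM in any tissue. Hoxa11 (ENSMUSG00000038210), which patterns the forearm and lower leg, was at 15.9 to 24.6 CPM, and Hoxd13, which patterns the digits, at 8.64 to 21.6 CPM, whereas in tissues they reached 2.34 and 0.259 CPM. Levels of MEFs and tissues come from separate tables and were not tested against each other. MEFs had fibroblast marker sums of 3871 to 6978 CPM at both passages. Striated muscle precursor markers summed to 176 CPM in embryo 10 at passage 1 and at most 17.2 elsewhere, and macrophage markers at passage 1 to 24.5 to 36.5 CPM in embryos 2, 3 and 10 and 134 to 210.5 in the other 6.

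With passage, Hoxa11 fell. It went from 19.2 to 14.3 CPM in embryo 1, 18 to 11.7 in embryo 2, 24.1 to 15.8 in embryo 3, 16.3 to 14.4 in embryo 4, 16.8 to 9.2 in embryo 5, 16.3 to 10.7 in embryo 6, 15.9 to 13.2 in embryo 7, 17.7 to 7.24 in embryo 8 and 24.6 to 17.7 in embryo 10. It was lower at passage 3 in 9 of 9 embryos, although the ranges of the passages overlap. The log2 fold change was -0.59 (SE 0.13, adjusted p = 0.026, edgeR), and it was the only 1 of 30 members tested that was called, where 2.82% of all genes tested were called (1.81% higher and 1.01% lower). At an unadjusted p under 0.05 there were 7 members. The share of all genes under that cut is not given here or below, so such counts are description only.

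The passages of an embryo come from the same animal, and with the embryo as a replicate block 5 of 26 members were called, where 4.22% of all genes were called (2.79% higher and 1.43% lower). Hoxa11 (-0.59, SE 0.11, adjusted p = 0.01) and Hoxd13 (-1.02, SE 0.24, adjusted p = 0.03) fell, while Hoxd8 (0.55, SE 0.11, adjusted p = 0.018), Hoxc8 (0.57, SE 0.13, adjusted p = 0.026) and Hoxb7 (0.48, SE 0.11, adjusted p = 0.027) rose. Hoxb8 (0.34, SE 0.18, adjusted p = 0.33 without the block) was higher at passage 3 in 6 of 9 embryos, at 4.61 to 10.7 CPM before and 5.64 to 11.8 after. Hoxb9 (0.24, SE 0.18, adjusted p = 0.55) was also higher in 6 of 9, and neither passed with the block.

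Embryo 10 stood apart from the other 8 embryos in Hoxd13 and Hoxc6. Its Hoxd13 went from 20.3 to 31.3 CPM while it was lower at passage 3 in the other 8, and its Hoxc6 from 35.7 to 15.2 CPM while it was higher in the other 8. Without embryo 10, 4 members were called without the block: Hoxd13 (-1.28, SE 0.21, adjusted p = 0.0029), Hoxa11 (-0.58, SE 0.14, adjusted p = 0.025), Hoxc8 (0.62, SE 0.14) and Hoxc6 (0.57, SE 0.12), where 6.36% of all genes were called. Since embryo 10 is set apart here by its Hoxd13 and Hoxc6, the calls of these genes without it describe the other 8 and support nothing. The call of Hoxa11 without the block was lost on leaving out any of embryos 2, 3, 4, 5, 6 or 8, with adjusted p of 0.053 to 0.1, and on leaving out embryos 1 and 3 together (-0.64, adjusted p = 0.17), where 0.0328% of all genes were called. The labels of embryo 8 differ among themselves. Its library taken as passage 1 is titled passage 2, and the one taken as passage 3 is titled passage 1 and has a column named passage 5. Without embryo 8 Hoxa11 was at -0.53 (SE 0.13, adjusted p = 0.098), and with the block at -0.51 (SE 0.10, adjusted p = 0.022). With the block and without embryo 8, Hoxb7 was still called (0.52, SE 0.12, adjusted p = 0.044), while the calls of Hoxd13 (-0.93, SE 0.25, adjusted p = 0.081), Hoxc8 (0.53, SE 0.14, adjusted p = 0.079) and Hoxd8 (0.53, SE 0.13, adjusted p = 0.052) were lost.

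**Figure D5:**
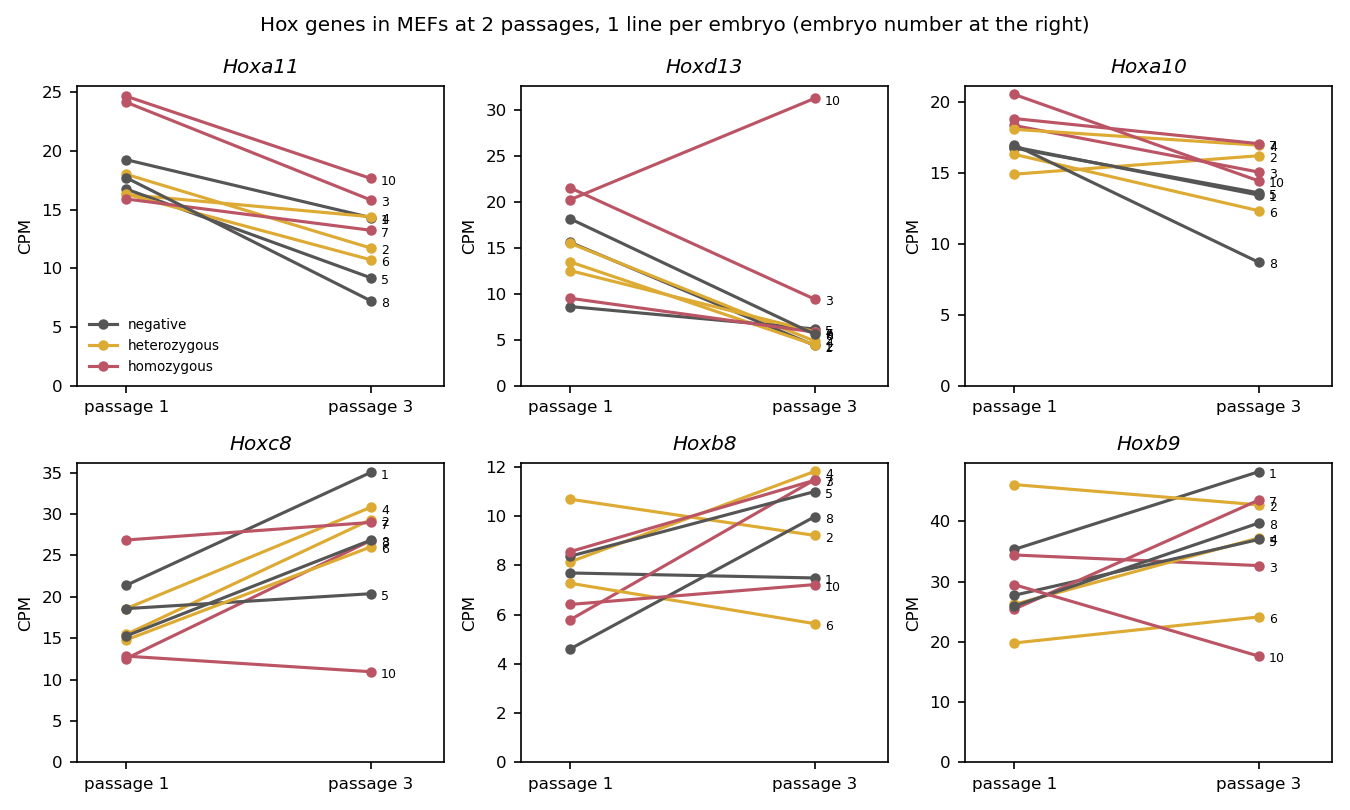
CPM of Hoxa11, Hoxd13, Hoxa10, Hoxc8, Hoxb8 and Hoxb9 at passages 1 and 3 (horizontal), 1 line per embryo, coloured by labelled genotype. Hoxa11 is lower at passage 3 in 9 of 9 embryos, and Hoxd13 in 8 of 9, the exception being embryo 10 (20.3 to 31.3 CPM).

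Homozygous MEFs were compared with negative ones at each passage. Nrg1, the part of the transgene that can be counted, went against the labels of 2 embryos. It was at 132 and 147 CPM at passages 1 and 3 in embryo 1, labelled negative, and at 0.644 and 1.28 CPM in embryo 3, labelled homozygous, where the other negative embryos had 0.485 to 1.57 CPM and the other homozygous embryos 84.9 to 158. With the labels as given, 0 of 30 members were called between homozygous and negative MEFs at passage 1 or passage 3, where 0% of all genes were called by edgeR. At an unadjusted p under 0.05 there were 1 and 4 members, again without the share of all genes. DESeq2 called 0 members at either passage, where it called 0.199% of all genes at passage 1 and 0% at passage 3. Without embryos 1 and 3, 0 members were called too, where edgeR called 0.0164% of all genes at passage 1 and 0.00821% at passage 3.

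Hoxb8 differed by 0.02 (SE 0.31, adjusted p = 0.99) at passage 1 and by 0.07 (SE 0.29, adjusted p = 1) at passage 3, and Hoxb9 by 0.01 (SE 0.32, adjusted p = 0.99) and -0.41 (SE 0.31, adjusted p = 1). Hoxd13 at passage 3, chosen after its value was seen, differed by 1.49 (SE 0.49, adjusted p = 1), with embryo 10 at 31.3 CPM, the other homozygous libraries at 5.86 and 9.44 and the negative ones at 4.41, 5.62 and 6.2. The change of the homozygous effect between passages was 0.05 (SE 0.43) for Hoxb8 and -0.43 (SE 0.45) for Hoxb9, with 0 members called, 0 at an unadjusted p under 0.05 and 0 by DESeq2. Of all genes, 0% were called by edgeR and 0.00830% by DESeq2. Each genotype had 3 embryos, with embryo 1 of the negative and embryo 3 of the homozygous group in doubt. Standard errors near 0.3 leave differences well above that size undetected.

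Embryos were compared over both passages. Of 26 members tested, 0 were called by edgeR, where 0.613% of all genes were called. An unadjusted p under 0.05 was found for 11 members, again without the share of all genes. DESeq2 called 1, where it called 2.52% of all genes. Without a filter on counts 4 were called, where 2.32% of all genes were: Hoxb13, Hoxc9, Hoxd8 and Hoxd13. Hoxb13, which the filter left out, was at 11.6 CPM at passage 1 in embryo 3 and at 0 to 2.81 in the other 8. Hoxb8 and Hoxb9 were not called (adjusted p = 0.79 and 0.52).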

How the data were processed

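RNA 3′ ends were sequenced (QuantSeq, HiSeq4000, per the labels' protocols) and the authors deposited 2 tables of estimated counts per gene, 1 for 18 MEF libraries and 1 for 42 tissue libraries. Whether counting used the strand is not given in the sources used here, and reads of a Hox gene and an overlapping antisense gene cannot be told apart. Of the Hox values, 9.402% in MEFs and 4.518% in tissues were not whole, in 8 genes of each table, and counts were rounded before testing, although the tests had been planned for whole counts. No column of a table was left without a sample. Values of some single genes are not reported here.

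The 39 members and the other gene lists were chosen with earlier results of these data known. Levels are counts divided by the library total. Tests used edgeR 4.0.16 (R 4.3.3) with quasi-likelihood fits, TMM scaling, a minimum count of 10 in the filter on low counts, and p-values adjusted by Benjamini and Hochberg's method across every gene in the fit, called at 0.05. The 5 tissues with replicates shared 1 fit. Counts of both M00245 sarcomas were added up. Liver tumours were tested against liver in a fit of their own. In each comparison the text names up to 6 called members with the smallest adjusted p, and Hoxb8 and Hoxb9 always, and up to 3 genes of each other list. Alternatives were DESeq2 1.42.0, no filter, the groups compared alone, mouse or embryo as a block, and each library left out. The fits were tested on simulated data. Passages of 1 embryo come from the same animal, and their deviations correlated at 0.054 to 0.337 over 9 pairs. Tissues of 1 mouse did so at -0.053 to 0.321 over 48 pairs. MicroRNA sequences are from RefSeq (GRCm38.p6) and 3′ untranslated regions from the GENCODE M21 annotation.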

Additional observations from a re-analysis of the deposited data

Results flagged for a closer look

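The lung of mouse M00238 lay far from the other 6 lungs in 3 Hox genes, by Dixon's test of the gap between the highest library and its neighbour. Hoxa5 was at 231 CPM there and at 81.5 to 137 CPM in the others. Hoxb2 was at 12.3 CPM against 0.128 to 2.34, and Hoxb6 at 21.3 CPM against 0.947 to 3.89. Pairs of a gene and a group were tested in this way if their highest library reached 5 CPM. Of 31 such pairs 3 stood out, all in this library. In lung, Hoxb2 and Hoxb6 reached 5 CPM only through it, so the test gives no chance rate for them.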

How the results depend on the processing

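The named members that were called between tissues kept their direction under every alternative run. Without a filter on counts, 25, 23, 25 and 21 Hox genes were called in sarcomas against muscle, lung, liver and spleen. With only the groups concerned in the fit, 7 were called for lung against liver, 3 for muscle against liver, 5 for muscle against spleen and 3 for spleen against liver, since fewer members passed the filter. With each library left out, counts ran from 14 to 21, 12 to 19, 14 to 22 and 12 to 19 for sarcomas against muscle, lung, liver and spleen, the upper ends without the sarcoma of M00237. They ran from 11 to 11, 6 to 10 and 14 to 16 for lung against liver, spleen and muscle, 9 to 10 and 15 to 15 for muscle against liver and spleen, and 8 to 9 for spleen against liver. Mouse as a replicate block gave 14, 12, 14 and 10 for the 4 sarcoma comparisons.

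For passage, embryo as a replicate block gave 5 calls, no filter 3 (2.20% of all genes), DESeq2 2 (4.90%) and leaving out embryos 1 and 3 gave 0. Each embryo left out in turn gave 0 to 4, or 1 to 7 with the replicate block, an alternative chosen after seeing the data. Between embryos, no filter gave 4 and DESeq2 1. Homozygous against negative MEFs at passage 1 gave 0 to 1 with each library left out.

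Differences near 0 turned sign. Hoxb9 with a library left out ran from -0.89 to 0.43 for lung against liver, -0.27 to 1.71 for muscle against liver and -1.38 to 0.19 for muscle against spleen. In homozygous against negative MEFs, with a library left out, Hoxb8 at passage 1 ran from -0.2 to 0.19 (below 0 also at -0.14), Hoxb9 at passage 1 from -0.11 to 0.15 (also -0.08 and -0.02), Hoxb8 at passage 3 from -0.08 to 0.27 (also -0.05 and -0.02), and the change of the Hoxb8 effect between passages from -0.12 to 0.28 (also -0.1, -0.07, -0.04 without either of 2 libraries, and -0.03). Without embryos 1 and 3, Hoxb8 was at -0.2 at passage 3 and its change between passages at -0.4, and Hoxb9 at passage 1 was at -0.001 without a filter. The cause was not tested.

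At 0.5 CPM, 2 genes were detected in every liver, 3 in every liver tumour and 6 in every spleen, and at 2 CPM 0 in liver and 1 in muscle. Levels of 1 to 3 counts, such as Hoxb8 in liver and spleen, are at the limit of the depth. MEF genotypes rest on 3 embryos each, 1 in each extreme group with Nrg1 against its label.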
